A study of Mus musculus with 9 samples.

Results

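An olfactory sensory neuron (OSN) expresses 1 receptor gene out of a very large family, and the proteins encoded by 10 genes studied for their part in that choice were followed here at the RNA level: Lhx2, Ldb1, Ebf1, Ebf2, Ebf3, Ebf4, Emx2, Lbr, Kdm1a and Bcl11b. They were taken by name from a table of 24421 gene rows, all 10 were found, and all 10 passed the filter of 10 counts summed over the libraries that left 20213 genes for testing. RNA-seq was performed on whole main olfactory epithelium (MOE) of 9 mice from 1 line, established by CRISPR-Cas9, in which TAAR enhancer 1 was deleted from the germline. This enhancer is a noncoding element of the gene cluster of the trace amine-associated receptors (TAARs), a small group of olfactory receptors encoded apart from the odorant receptors (ORs). The 3 groups held 3 mice each and by their labels differed only in this allele: wild-type (WT), heterozygous with 1 deleted copy (het) and homozygous with both copies deleted (homo). By their labels all were C57BL/6 mice at postnatal day 14, whereas the reporting summary of the study gives a mixed background and a higher age for mice of the line. Which of these applies to the 9 libraries is not known. Nothing in the labels says whether mice of different genotypes shared a litter. The paper calls the mice of the 3 genotypes used for this RNA-seq littermates, without saying which of the 9 libraries came from the same litter.

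In OSNs, OR genes are held in heterochromatin carrying methylated histone H3 lysine 9, and enhancers on many chromosomes gather at the allele that is transcribed. Lhx2, a LIM-homeodomain factor, and the Ebf proteins bind OR enhancers and promoters next to each other, and Ldb1 is the adaptor through which LIM-homeodomain factors hold distant enhancers together. Emx2 is a homeodomain factor needed for normal expression of many OR genes. Kdm1a (LSD1), a histone lysine demethylase, is needed to start receptor expression, Lbr is a receptor of the inner nuclear membrane that tethers heterochromatin and whose loss from OSN nuclei lets silent OR genes cluster inside them, and Bcl11b is a zinc finger factor that biases OSNs toward one class of OR genes.

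Gene counts summed to between 24583906 and 32631951 per library, and levels are given as CPM, counts scaled to libraries of equal size, on which 3 counts equal 0.0916 to 0.122. Without molecular identifiers such limits cover counting error only. Libraries of 1 genotype differed by more than sampling noise, and each was counted as 1 mouse. The deletion was visible in Taar genes: Taar2, Taar3, Taar4, Taar5 and Taar9 had means of 1.15 to 3.03 CPM in wild-type mice and of 0 to 0.167 CPM in homozygous mice. All 8 markers of mature OSNs were detected, as were all 5 of immature OSNs, all 5 of sustentacular cells and all 7 of dividing progenitors. In 3 libraries, heterozygous replicate 1 and homozygous replicates 2 and 3, the 330 receptor genes of the vomeronasal organ summed to 67.9, 120 and 69.5 CPM, against 14.6 to 17.3 CPM in the other 6. Leaving these 3 out keeps 3 wild-type, 2 heterozygous and 1 homozygous libraries, and the members' homozygous against wild-type values are given with and without them. Of those 330 genes, 55 were at 0 in every library.

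The 4 Ebf genes are close relatives, so whether their reads can be told apart decides what their separate values mean. The 60 coding bases of Ebf1 that the other 3 genes match best, without gaps, are shown to make this visible. Capitals mark the 13 positions at which the 4 genes are not all the same. Positions are in GRCm38 with the strand of the gene.
Ebf1 (chr11:44620469-44620528, plus strand, exon 2): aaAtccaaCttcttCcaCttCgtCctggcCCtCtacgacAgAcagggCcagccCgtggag
Ebf2 (chr14:67237504-67237563, plus strand, exon 3): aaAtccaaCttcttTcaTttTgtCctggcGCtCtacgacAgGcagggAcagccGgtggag
Ebf3 (chr7:137313560-137313619, minus strand, exon 2): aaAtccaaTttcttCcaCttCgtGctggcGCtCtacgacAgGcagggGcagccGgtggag
Ebf4 (chr2:130306463-130306522, plus strand, exon 3): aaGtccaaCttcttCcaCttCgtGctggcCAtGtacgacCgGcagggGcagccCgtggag
Even in this stretch Ebf2 and Ebf4 matched Ebf1 at 88.3% of positions and Ebf3 at 90%. Of all stretches of 50 bases in the annotated transcripts of each gene, 100% were found in no other gene for Ebf1 and Ebf4, 97.7% for Ebf3 and 95.2% for Ebf2. The shared stretches of Ebf3 and Ebf2 lay in the antisense transcripts Gm45278 and Gm10860, not in another Ebf gene. No Ebf gene shared 50 bases in a row with another, so the 4 values below are separate measurements.

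The other members were also distinct in sequence. Lhx2 (chr2:38339281-38369733) and Kdm1a (chr4:136550540-136602723) shared no stretch of 50 bases with another gene. Bcl11b (chr12:107910403-108003602) was unique over 99.7% of its stretches, Ldb1 (chr19:46031570-46045214) over 97.3%, Emx2 (chr19:59458372-59465357) over 92.8% and Lbr (chr1:181815335-181843046) over 91.6%. What Emx2 shared was with its antisense transcript Emx2os, and what Ldb1 shared was with Pprc1 on the opposite strand. The libraries were made with a directional kit, but the strand setting of the counting is not given in the sources used here, so reads from such overlaps cannot be assigned with certainty. Exon overlap covered 8.79% of the exon bases of Emx2 and 3.84% of those of Ldb1. With Dnah14 on the opposite strand it covered 9.24% of those of Lbr, which also holds a short rRNA gene, Gm26004, over 1.45%. The antisense transcripts Gm10860 and Gm45278 covered 6.12% of the exon bases of Ebf2 and 3.85% of those of Ebf3, so the same limit holds for these genes. Emx2os was at 25.6 to 28.6 CPM and Pprc1 at 30.4 to 40.1 CPM in the 9 libraries. Dnah14, Gm26004, Gm10860 and Gm45278 were not among the genes tested.

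The promoters of 9 members are held in RefSeq for GRCm38.p6 as 250 bases before and 50 bases after the gene start. The letters TAATTA, the core of many homeodomain binding sites and the same on both strands, occurred in the promoters of 6.12% of 27025 gene symbols and of 18.7% of 940 OR genes. Among the 9 members only Emx2 held them, 36 bases after the start that RefSeq gives it, which lies within the longer GENCODE gene given above, at chr19:59458714-59458739 on the plus strand, where the capitals mark the match.
Emx2: tgatccccgcacTAATTAggctcatg
Such a match describes this window only.

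Every regulator was readily measured in whole MOE, with means over the 9 libraries that placed them above 72.1% (Lbr) to 99.6% (Ebf3) of all genes tested. To compare genes, levels in wild-type mice were divided by the length of all exons of a gene. Ebf4 was highest at 130 ± 2.44 CPM per kb (SD, n = 3). It was followed by Ebf2 at 94.0 ± 3.01, Lhx2 at 80.5 ± 3.42, Ebf3 at 69.9 ± 0.807 and Ldb1 at 55.8 ± 1.71 CPM per kb (SD, n = 3 each). Ebf1 at 35.9 ± 0.961 and Emx2 at 35.3 ± 2.77 CPM per kb differed by less than their spread (SD, n = 3 each). Kdm1a at 28.7 ± 1.04, Bcl11b at 15.2 ± 0.966 and Lbr at 10.5 ± 0.291 CPM per kb closed the order (SD, n = 3 each), so Lhx2, Ldb1 and all 4 Ebf genes were above the demethylase and the membrane tether.

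**Figure D1:**
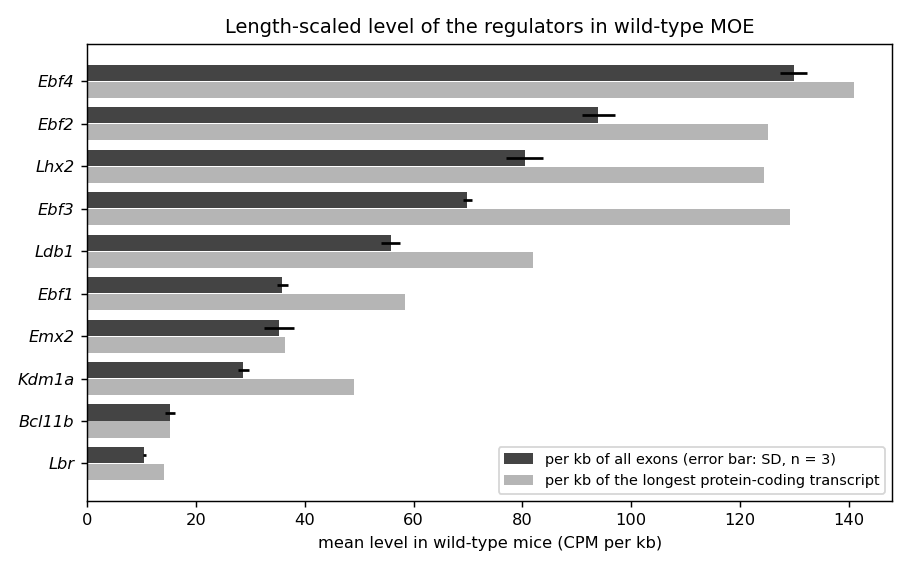
Mean level of the 10 regulators in 3 wild-type mice, in CPM per kb of all exons of the gene (dark bars, error bars are SD, n = 3) or per kb of its longest protein-coding transcript (light bars, no error bars). Ebf4 is first and Lbr last on both scales, while Ebf3 moves from 69.9 to 129 CPM per kb.

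The middle of this order depended on which length was used, an alternative chosen after seeing the data. Per kb of the longest protein-coding transcript, Ebf4 was at 141 CPM per kb, Ebf3 at 129, Ebf2 at 125 and Lhx2 at 125, so that Ebf3 moved from rank 4 to rank 2 and Lhx2 from rank 3 to rank 4. Kdm1a, at 49.1, then stood above Emx2, at 36.3 CPM per kb. Ebf4, Ldb1, Ebf1, Bcl11b and Lbr kept their ranks. Over all exons, Ebf4 made up 39.4% of the summed per-length level of the 4 Ebf genes in wild-type, 39.2% in heterozygous and 40.8% in homozygous mice, and Ebf1 made up 10.9%, 11.1% and 10.5%. These shares hold for this length only. Per kb of the longest transcript Ebf4, Ebf3 and Ebf2 lay closer together, at 141, 129 and 125 CPM per kb in wild-type mice.

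The question put to the genotypes was whether mice without TAAR enhancer 1 differ in the RNA level of the factors that act on receptor choice. No regulator passed the test in any comparison. At an adjusted p under 0.05 (edgeR's quasi-likelihood test, Benjamini-Hochberg over 20213 genes) the call was made for 0 of 10 in homozygous against wild-type mice, and for 0.0495% of all genes. The count was 0 of 10 in heterozygous against wild-type mice, with 0.00495% of all genes called, and 0 of 10 in homozygous against heterozygous mice, with 0.114%. A test of any difference among the 3 genotypes also called 0 of 10, with 0.0643% of all genes called. DESeq2 with default settings called 0 of 10 in each of these 4 tests. Of all genes it called more than edgeR, 65, 3, 122 and 124 in the same order. At an unadjusted edgeR p under 0.05, 4 members passed in homozygous against wild-type mice (9.26% of all genes), 1 in heterozygous against wild-type mice (3.25%) and 2 in homozygous against heterozygous mice (10.4%).

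**Figure D2:**
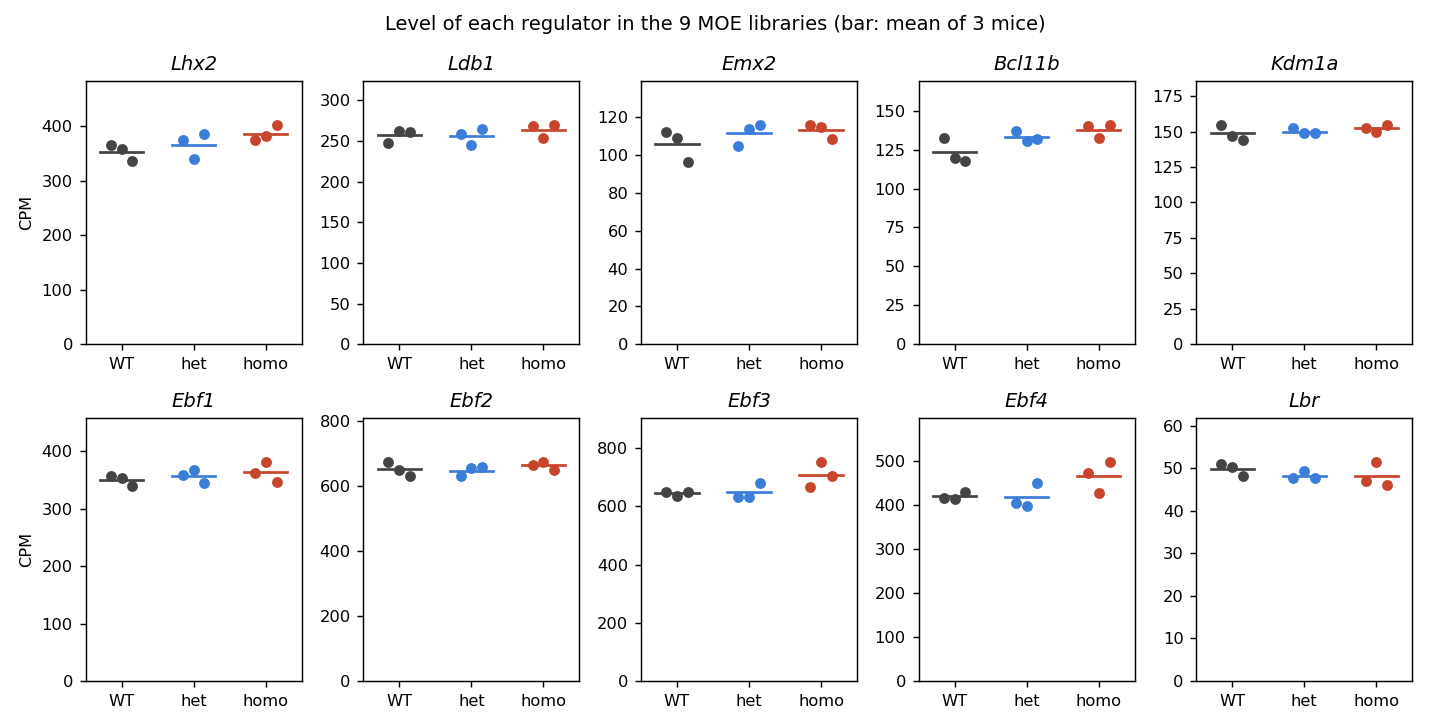
Level of each of the 10 regulators, in CPM on an axis from 0, in every library of wild-type (WT), heterozygous (het) and homozygous (homo) mice, with 1 point per mouse and a bar at the mean of 3 mice. The 3 homozygous points lie above the 3 wild-type points for Lhx2 and Ebf3 only.

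The spread of these genes between libraries was of a few percent. The coefficient of variation over all 9 libraries ran from 2.34% for Kdm1a to 7.65% for Ebf4 with a median of 4.78%, against a median of 5.54% over 11606 genes with a mean of at least 10 CPM. The 95% intervals of the members' log2 fold changes, not adjusted over all genes, reached 0.087 to 0.12 to either side in each comparison. The largest log2 fold change of a member was 0.16 for homozygous and 0.11 for heterozygous mice against wild-type mice, and 0.16 for homozygous against heterozygous mice. Between homozygous and wild-type mice 9 of 10 members had a positive log2 fold change. Their median was 0.075 against -0.00057 over all genes tested, of which 49.8% were positive. Between heterozygous and wild-type mice 6 of 10 were positive, and 51.5% of all genes, with a median of 0.011 against 0.0033. The homozygous against heterozygous comparison shares its libraries with the other 2, and there all 10 were positive. The median there was 0.039 against -0.0017, and 49.5% of all genes were positive. The members were read in the same libraries and some varied together, so these counts of members are not counts of replicates. Without the 3 libraries with vomeronasal RNA the median in homozygous against wild-type mice was 0.057, with 9 of 10 positive, and against heterozygous mice 0.030, also with 9 of 10 positive. In homozygous against wild-type mice the log2 fold change was then 0.062 for Ldb1, 0.13 for Emx2, 0.053 for Ebf1, 0.031 for Ebf2, 0.035 for Kdm1a and -0.081 for Lbr, and those of the other 4 members follow with their values. Over all alternatives the homozygous against wild-type value ranged from 0.015 to 0.069 for Ldb1, 0.022 to 0.090 for Ebf1, 0.0070 to 0.051 for Ebf2, 0.017 to 0.065 for Kdm1a and -0.094 to -0.016 for Lbr.

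**Figure D3:**
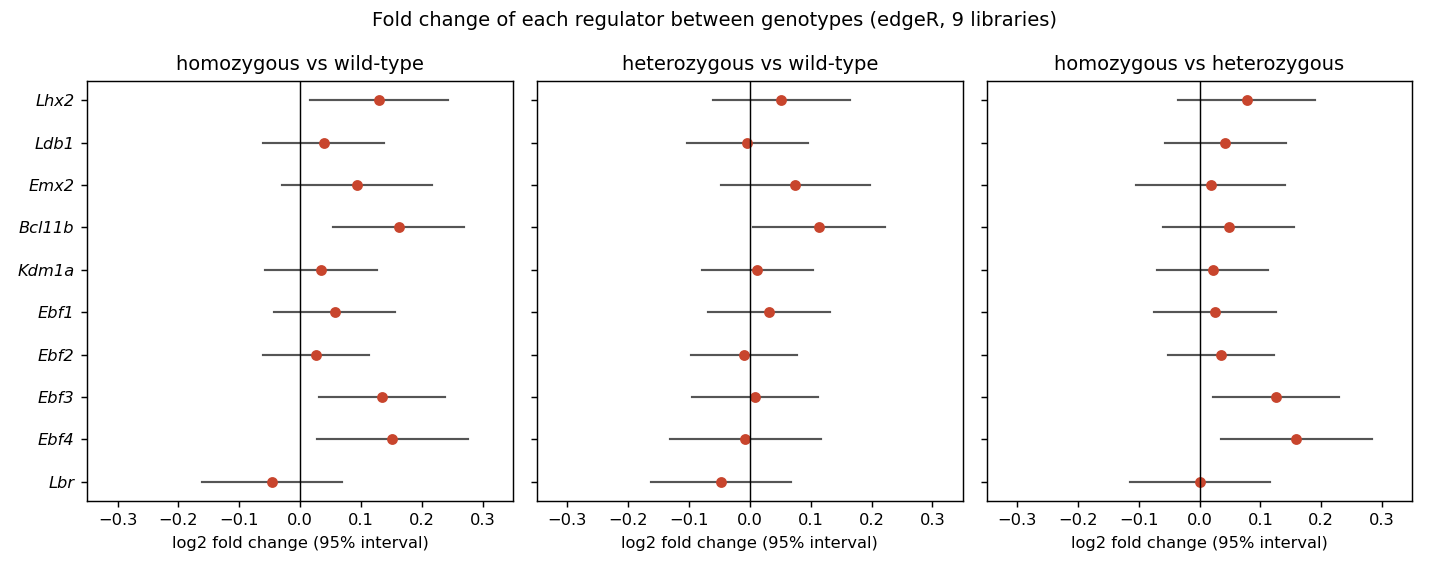
Log2 fold change (point) and its 95% interval (line) from edgeR for each regulator in the 3 comparisons of genotypes, with a vertical line at 0. The intervals lie above 0 for Lhx2, Ebf3, Ebf4 and Bcl11b in homozygous against wild-type mice, for Bcl11b in heterozygous against wild-type mice and for Ebf3 and Ebf4 in homozygous against heterozygous mice, before adjustment over all genes.

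Lhx2, the factor that binds nearly every OR enhancer together with Ebf proteins, was at 365, 359 and 336 CPM in wild-type replicates 1 to 3, at 374, 339 and 386 CPM in heterozygous replicates 1 to 3 and at 374, 383 and 403 CPM in homozygous replicates 1 to 3. All 3 homozygous libraries were above all 3 wild-type libraries, and the heterozygous libraries overlapped both. Of the 10 members 2 did not overlap between homozygous and wild-type mice, Lhx2 and Ebf3, as did 15.4% of all genes tested. Between heterozygous and wild-type mice the groups did not overlap for 0 members and 8.68% of all genes, and between homozygous and heterozygous mice for 0 members and 14.1%. The log2 fold change of Lhx2 in homozygous against wild-type mice was 0.13 (SE 0.053, edgeR adjusted p = 0.479), a difference of 9.38% with a 95% interval of 1.12 to 18.3%. Without the 3 libraries with vomeronasal RNA, which leaves 1 homozygous library, it was 0.082 (edgeR adjusted p = 0.930).

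Ldb1, which carries no DNA-binding domain and joins LIM proteins on separate enhancers, lay in a narrow range: 248 to 262 CPM in wild-type, 246 to 265 CPM in heterozygous and 254 to 270 CPM in homozygous mice. The 3 groups overlapped. Its log2 fold change was 0.039 in homozygous (SE 0.047, edgeR adjusted p = 0.864) and -0.0039 in heterozygous mice (SE 0.047, edgeR adjusted p = 1) relative to wild-type, and the 95% interval of the first ran from -0.060 to 0.14. Emx2 was at 96.6 to 112 CPM in wild-type, 105 to 116 CPM in heterozygous and 109 to 116 CPM in homozygous mice, again with overlap. Its log2 fold change in homozygous mice was 0.093 (SE 0.058, edgeR adjusted p = 0.653), 0.035 without wild-type replicate 3, the lowest library, and 0.16 with the vomeronasal covariate, and that of Emx2os was 0.033 (SE 0.068).

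The Ebf genes, which encode helix-loop-helix factors with a family-specific DNA-binding domain were all detected in each library. Ebf1 was at 339 to 357 CPM in wild-type, 346 to 368 CPM in heterozygous and 346 to 382 CPM in homozygous mice. Ebf2 was at 631 to 672 CPM in wild-type, 630 to 657 CPM in heterozygous and 648 to 675 CPM in homozygous mice. For both, the 3 groups overlapped, and the log2 fold change in homozygous against wild-type mice was 0.057 for Ebf1 (SE 0.047, edgeR adjusted p = 0.768) and 0.026 for Ebf2 (SE 0.041, edgeR adjusted p = 0.902). The interval of Ebf2 ran from -4.15 to 8.13%.

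Ebf3 was at 649, 636 and 649 CPM in wild-type replicates 1 to 3, at 632, 634 and 681 CPM in heterozygous replicates 1 to 3 and at 667, 754 and 703 CPM in homozygous replicates 1 to 3. The highest values were those of homozygous replicates 2 and 3, which are also libraries with vomeronasal RNA. The log2 fold change in homozygous against wild-type mice was 0.13 (SE 0.048, edgeR adjusted p = 0.431), a difference of 9.77% with an interval of 2.21 to 17.9%. It was 0.047 without the 3 libraries with vomeronasal RNA (edgeR adjusted p = 0.959) and 0.091 with the summed vomeronasal receptor level as a covariate (edgeR adjusted p = 0.847). In homozygous against heterozygous mice it was 0.13 (SE 0.048, edgeR adjusted p = 0.382), and 0.019 without those libraries.

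Ebf4 was at 417, 415 and 430 CPM in wild-type replicates 1 to 3, at 406, 399 and 450 CPM in heterozygous replicates 1 to 3 and at 474, 428 and 499 CPM in homozygous replicates 1 to 3. Homozygous replicate 2 lay below wild-type replicate 3, so the groups overlapped. The log2 fold change was 0.15 in homozygous against wild-type mice (SE 0.058, edgeR adjusted p = 0.451) and 0.16 in homozygous against heterozygous mice (SE 0.058, edgeR adjusted p = 0.356). Without the 3 libraries with vomeronasal RNA these were 0.17 and 0.16. The first was 0.10 without homozygous replicate 3. Heterozygous replicate 3 stood above the other 2 heterozygous libraries, and without it the homozygous against heterozygous difference was 0.22 (edgeR adjusted p = 0.0917), the lowest adjusted p of any member under any setting tried.

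Bcl11b, the zinc finger factor of OR class choice, was at 132, 120 and 118 CPM in wild-type replicates 1 to 3, at 137, 131 and 132 CPM in heterozygous replicates 1 to 3 and at 140, 132 and 141 CPM in homozygous replicates 1 to 3. Wild-type replicates 2 and 3 were the lowest of the 9 libraries, and wild-type replicate 1 overlapped the other genotypes. It had the smallest p of the members: the log2 fold change was 0.16 in homozygous (SE 0.051, unadjusted p = 0.00594, edgeR adjusted p = 0.376) and 0.11 in heterozygous mice (SE 0.051, unadjusted p = 0.0401, edgeR adjusted p = 1) relative to wild-type. Without the 3 libraries with vomeronasal RNA these values were 0.19 and 0.093. Bcl11b is also a factor of T cells, and the 5 T cell markers, all detected, summed to 2.09 to 2.72 CPM in wild-type, 2.08 to 2.67 CPM in heterozygous and 2.09 to 2.44 CPM in homozygous mice, and their part in the values of Bcl11b was not tested.

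Kdm1a, the demethylase, varied least. It was at 144 to 155 CPM in wild-type, 149 to 153 CPM in heterozygous and 150 to 154 CPM in homozygous mice, and the groups overlapped. Its log2 fold change in homozygous against wild-type mice was 0.034 (SE 0.043, edgeR adjusted p = 0.871), with an interval of -3.87 to 9.11%. Lbr, which OSNs turn down as they mature while other cells of the tissue keep it, was the one member with a negative value in homozygous mice, at a log2 fold change of -0.046 in homozygous (SE 0.054, edgeR adjusted p = 0.856) and -0.048 in heterozygous mice (SE 0.054, edgeR adjusted p = 1) relative to wild-type. Lbr was at 48.3 to 51.0 CPM in wild-type, 47.7 to 49.3 CPM in heterozygous and 46.1 to 51.6 CPM in homozygous mice, with overlap of all groups.

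Because whole tissue was sampled, fewer cells of a type and less RNA per cell cannot be told apart, and the markers of the cell types that express these regulators were read beside them. The 8 markers of mature OSNs, led by Omp and the olfactory transduction genes and none of them at 0, summed to 7700 to 7787 CPM in wild-type, 7793 to 8322 CPM in heterozygous and 7940 to 8572 CPM in homozygous mice. Like Lhx2 and Ebf3, this sum was higher in every homozygous than in every wild-type library. The same held for the sums of immature OSN markers and of OR genes that follow. The mature sum was also higher in every heterozygous than in every wild-type library, at 7793 CPM or more against 7787 CPM or less. The 5 markers of immature OSNs summed to 1634 to 1647 CPM in wild-type, 1586 to 1737 CPM in heterozygous and 1718 to 1743 CPM in homozygous mice, and the 7 markers of progenitors to 501 to 551, 529 to 531 and 484 to 522 CPM. The 1107 OR genes, the targets of these factors, summed to 3023 to 3134 CPM in wild-type, 2964 to 3240 CPM in heterozygous and 3144 to 3279 CPM in homozygous mice. The part of these sums in the members' differences was not tested. Ebf1 is also the factor of B cells, and the 6 B cell markers, all detected, summed to at most 4.68 CPM in any library. The Ebf genes are also expressed in connective tissue, whose 7 markers, none at 0, summed to 11786 to 13479 CPM in wild-type, 12485 to 14659 CPM in heterozygous and 11484 to 12514 CPM in homozygous mice.

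The level of each member was compared over the 9 libraries with 4 marker sums, which made 40 relations, and 0 of 40 were called with both coefficients at an adjusted p under 0.05. The highest Pearson coefficient was that of Ebf4 with mature OSN markers, at 0.909 (exact permutation, two-sided, p = 0.00212, adjusted over the 40 relations 0.0849), where Spearman's rho was 0.6 (exact permutation adjusted p = 0.553). Without the 2 libraries farthest from the median marker sum it was 0.830, and for deviations from the genotype means it was 0.944. Lhx2 and mature OSN markers gave 0.798 (exact permutation adjusted p = 0.203) and a rho of 0.9 (exact permutation adjusted p = 0.0811), with a Pearson coefficient of 0.575 without the 2 farthest libraries and 0.621 for deviations from the genotype means. Lbr went the other way, with a Pearson coefficient of -0.664 (exact permutation adjusted p = 0.334) and a rho of -0.617 (exact permutation adjusted p = 0.553). For Ebf1 the coefficient with mature OSN markers was -0.186 over all libraries (exact permutation adjusted p = 0.817), with a rho of 0.117 (exact permutation adjusted p = 0.875), and -0.815 for deviations from the genotype means.

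**Figure D4:**
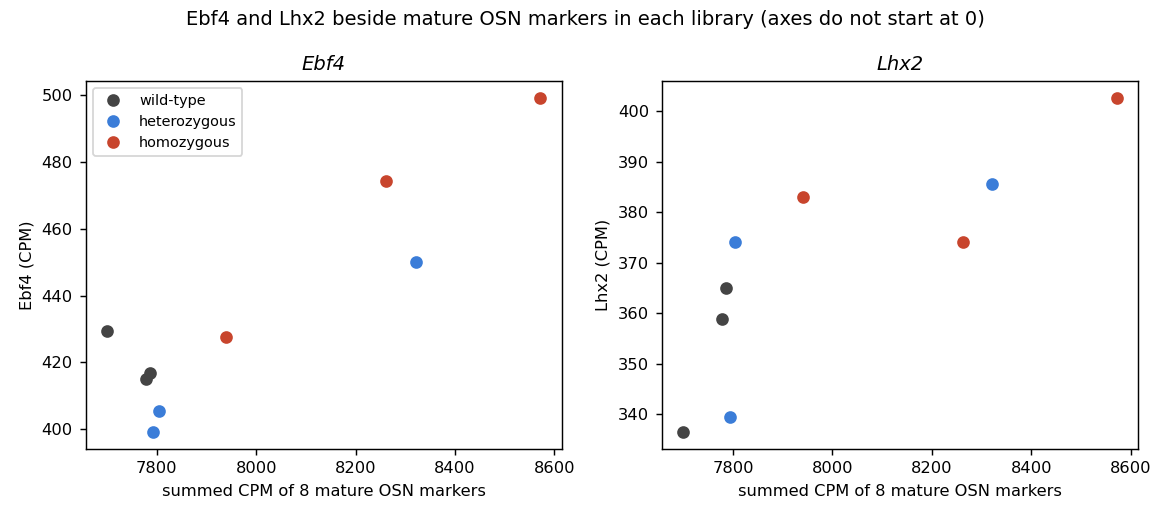
Level of Ebf4 (left) and Lhx2 (right) in CPM against the summed CPM of 8 mature OSN markers, with 1 point per library coloured by genotype; the axes do not start at 0. The library with the highest marker sum, homozygous replicate 3 at 8572 CPM, is also the highest for both genes.

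Among the members themselves, Pearson's r of log2 CPM over the 9 libraries ranged from -0.727 for Ldb1 and Lbr to 0.857 for Kdm1a and Bcl11b. Ebf2 and Emx2 had an r of 0.824, Ldb1 and Ebf4 of 0.801, and Ebf2 and Ebf4 of 0.134. These are descriptions over libraries that share genotype and normalization. Of 11605 other genes with a mean of at least 10 CPM, the pattern most like that of Lhx2 was that of Foxo6 (r = 0.972), followed by Fam131c (0.969). For the 4 Ebf genes in order, the nearest were Hnrnpd (0.948) and Lsm12 (0.936), Fam53a (0.962) and Ccnh (0.941), Zmat2 (0.981) and Mettl10 (0.972), and Mslnl (0.977) and Clasrp (0.976). For Ldb1 they were Bloc1s1 (0.956) and Bap1 (0.938), for Emx2 Lancl1 (0.927) and Leprotl1 (0.917), for Lbr Ubtd2 (0.933) and Rnmt (0.933), for Kdm1a Shroom3 (0.957) and Cdh4 (0.936), and for Bcl11b Ubqln2 (0.989) and Slc7a5 (0.960). The nearest genes of no 2 members were the same. Each was picked as 1 of the 2 highest of 11605 coefficients over 9 libraries. Such a choice gives high coefficients in itself, and none of them was tested.

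Genes whose products work with the regulators were read from 6 lists. Over all of them 78 genes were tested and 0 were called by edgeR at an adjusted p under 0.05 in any of the 3 comparisons, against the shares of all genes given above. Of the LIM-homeodomain and Ldb1 partner genes 14 of 17 were tested, since Lhx1, Lhx4 and Lhx8 had 6, 2 and 2 counts over the 9 libraries. Their median log2 fold change in homozygous against wild-type mice was 0.0043, with 8 positive and 6 negative. Ssbp4, a single-stranded DNA-binding protein of the family that stabilizes Ldb1, was at 56.0, 57.9 and 61.3 CPM in wild-type replicates 1 to 3, 60.3, 59.5 and 60.5 CPM in heterozygous and 68.6, 65.8 and 67.9 CPM in homozygous replicates 1 to 3. Every homozygous library was above every library of the other genotypes, and the log2 fold change was 0.21 relative to wild-type (SE 0.047, edgeR adjusted p = 0.221). Its relative Ssbp3 was at 125 ± 5.74, 126 ± 9.50 and 141 ± 2.61 CPM in wild-type, heterozygous and homozygous mice (SD, n = 3 each), with a log2 fold change of 0.17 and SE 0.055 (edgeR adjusted p = 0.394). Ldb2, the paralog of Ldb1, was at 10.8 to 13.0 CPM and Lmo4, a LIM-only protein that competes for Ldb1, at 93.3 to 102 CPM in wild-type mice, with log2 fold changes of -0.10 and -0.049 in homozygous mice.

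All 14 genes of the LSD1 complexes were tested, and 12 were positive in homozygous against wild-type mice, with a median log2 fold change of 0.080. Of all genes tested 49.8% were positive. Genes of a list were read in the same libraries, so such counts are not counts of replicates. Insm1, a zinc finger factor of neuronal progenitors that recruits LSD1, was at 197, 176 and 169 CPM in wild-type replicates 1 to 3, 172, 174 and 199 CPM in heterozygous and 208, 243 and 230 CPM in homozygous replicates 1 to 3. The 3 homozygous libraries were the highest of the 9. The log2 fold change was 0.33 relative to wild-type (SE 0.071, edgeR adjusted p = 0.221) and 0.32 relative to heterozygous mice (SE 0.071, edgeR adjusted p = 0.116). DESeq2 with default settings called Insm1 in both comparisons (adjusted p = 0.00423 and 0.00165) and Ssbp4 in the first (adjusted p = 0.0458). In these 2 comparisons it called 65 and 122 genes in all. Without heterozygous replicate 3, edgeR called Insm1 between homozygous and heterozygous mice (log2 fold change 0.40, adjusted p = 0.0196), with 190 genes called in all. Beside Insm1, the 7 progenitor markers summed to 484 to 522 CPM in homozygous and 501 to 551 CPM in wild-type mice. Immature OSN markers summed to 1718 to 1743 and 1634 to 1647 CPM, and mature OSN markers to 7940 to 8572 and 7700 to 7787 CPM. The part of these sums in the values of Insm1 was not tested. Its highest values were those of homozygous replicates 2 and 3, which are also libraries with vomeronasal RNA. The corepressors Rcor1 and Rcor2, which hold LSD1 on nucleosomes, were at 114 ± 5.04 and 49.1 ± 2.95 CPM in wild-type mice (SD, n = 3 each), with log2 fold changes of 0.023 and 0.14 in homozygous mice.

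Of the 16 genes for methylation of histone H3 lysine 9 and H4 lysine 20 and for heterochromatin, 9 were positive and 7 negative in homozygous against wild-type mice, with a median log2 fold change of 0.0028. Cbx3, a reader of methylated histone H3, had the smallest p, with a log2 fold change of 0.27 with SE 0.088 (edgeR adjusted p = 0.397), from 15.2 ± 1.17 CPM in wild-type to 18.4 ± 1.35 CPM in homozygous mice (SD, n = 3 each). Cbx3 has processed pseudogenes, and how the counting split such reads is not known. Of the methyltransferases for histone H3 lysine 9, 2 lay close to 0: Ehmt1 at 0.0020 and Ehmt2 at 0.0035, with Setdb1 at -0.083 (SE 0.047, edgeR adjusted p = 0.626). Of the 10 genes of the nuclear lamina and inner membrane, which anchor chromatin beside Lbr, 7 were positive and 3 negative. Sun2, which links the lamina to the cytoskeleton, was at 83.2 to 85.6 CPM in wild-type and 72.9 to 79.6 CPM in homozygous mice, with no overlap and a log2 fold change (SE) of -0.14 (0.053), at an edgeR adjusted p of 0.451. Lmna was at -0.0012 and Lmnb1 at 0.096 (SE 0.061 and 0.045).

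The 10 genes of chromatin architecture were the one list with mostly negative values, 8 of 10 in homozygous against wild-type mice, with a median log2 fold change of -0.028. Ctcf, which bounds chromatin loops, was at -0.066 (SE 0.041, edgeR adjusted p = 0.663). Of the 14 other transcription factors of olfactory neurons 11 were positive, against 49.8% of all genes tested, with a median of 0.091. Bcl11a, the paralog of Bcl11b, was at 96.5 ± 3.21, 103 ± 1.25 and 104 ± 1.82 CPM in wild-type, heterozygous and homozygous mice (SD, n = 3 each), with log2 fold changes of 0.11 in homozygous and 0.092 in heterozygous mice relative to wild-type (SE 0.042 each, edgeR adjusted p = 0.451 and 1). Nfia was at 0.047 (SE 0.067, edgeR adjusted p = 0.890).

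Without the 3 libraries with vomeronasal RNA 0 of the list genes were called in any comparison, and the log2 fold changes in homozygous against wild-type mice were 0.20 for Insm1, 0.23 for Ssbp4, 0.18 for Cbx3 and -0.11 for Sun2. The median was then 0.053 for the LSD1 complexes, -0.012 for LIM-homeodomain and Ldb1 partners, 0.037 for methylation and heterochromatin, 0.021 for the lamina, -0.049 for chromatin architecture and 0.034 for the other transcription factors.

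**Figure D5:**
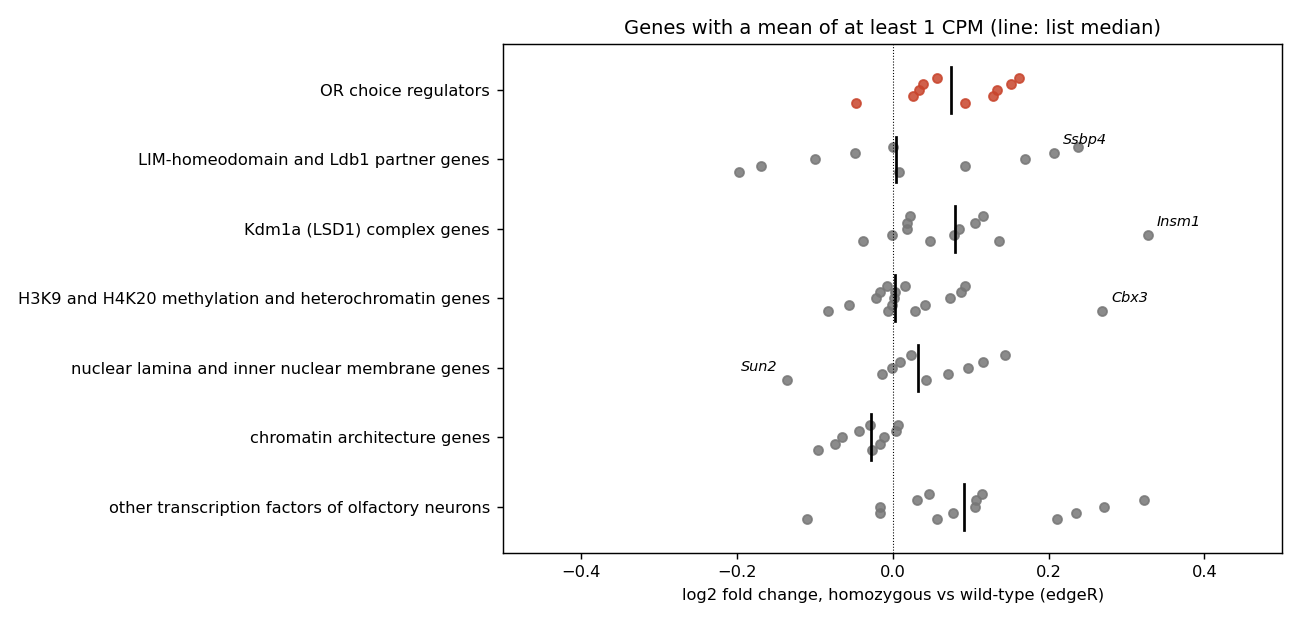
Log2 fold change in homozygous against wild-type mice (edgeR) of the 10 regulators and of the 72 genes of the 6 related lists with a mean of at least 1 CPM, 1 point per gene, with a vertical bar at the median of all genes tested in a list; the 6 tested genes under 1 CPM are not drawn. Ssbp4, Insm1, Cbx3 and Sun2 are named, and 9 of the 10 regulators lie to the right of 0.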

How the data were processed

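Whole MOE RNA was selected with polyA beads and made into directional libraries. The submitters' processing notes name Trimmomatic 0.36, HISAT2 2.1.0, HTSeq 0.6.1p1, DESeq2 1.20.0 and the builds GRCm38 and mm10, while the study's methods name another counter; the gene annotation is not given in the sources used here. The authors deposited raw counts per gene, used here, and a normalized table, not used. Reads counted in genes were 57.4 to 60% of those tabulated; the summary rows were left out.

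Genes with at least 10 counts over the 9 libraries were tested with edgeR 4.0.16 (R 4.3.3) by its quasi-likelihood method after TMM scaling, in 1 fit of all libraries by genotype, at a Benjamini-Hochberg adjusted p under 0.05. The code was tested on simulated data. Exon lengths and positions are from GENCODE M21. Alternatives were DESeq2 1.42.0 or its size factors, other filters on low counts, the 6 libraries compared, the replicate block, vomeronasal RNA as a covariate or its libraries left out, and each library left out.

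The members, lists, alternatives and rules were chosen with earlier results of these data known. Named are the members, the gene with the smallest p in homozygous against wild-type mice of each list, any list gene called, 13 paralogs or partners (Ldb2, Lmo4, Ssbp3, Rcor1, Rcor2, Ehmt1, Ehmt2, Setdb1, Lmna, Lmnb1, Ctcf, Nfia and Bcl11a), the 2 genes of most like pattern per member, overlapping genes and Taar2 to Taar5 and Taar9. The gene with the smallest p of 2 lists is not reported here. Each sample was taken as 1 mouse, and p-values measure the spread between these samples, part of which may be technical.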

Additional observations from a re-analysis of the deposited data

How the results depend on the processing

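No member was called under any alternative, and of 510 log2 fold changes recomputed for the members 485 kept their direction. Those that turned were small. In heterozygous against wild-type mice they were, without the 3 libraries with vomeronasal RNA, Ebf2 (0.010) and Ebf4 (0.015), and with the vomeronasal covariate Ldb1 (0.0039), Ebf3 (-0.0095) and Ebf4 (0.019). In homozygous against heterozygous mice Lbr turned in both, to -0.041 and -0.015. Leaving out each library in turn gave, in heterozygous against wild-type mice, -0.031 to 0.012 for Ebf2, -0.032 to 0.026 for Ldb1, -0.031 to 0.027 for Ebf3, -0.067 to 0.025 for Ebf4 and -0.0079 to 0.040 for Kdm1a, and in homozygous against heterozygous mice -0.0072 to 0.060 for Ebf1, -0.023 to 0.051 for Emx2 and -0.044 to 0.033 for Lbr. The cause was not tested.

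Genes called over the 6 related lists were 2 between homozygous and wild-type mice with DESeq2 (Insm1 and Ssbp4). Between homozygous and heterozygous mice they were 1 with DESeq2 and 1 without a filter on low counts (Insm1, edgeR adjusted p = 0.0497). In that comparison they were 0 to 1 when each library was left out, the 1 without heterozygous replicate 3. Genes called there in all were 23 in the main fit, 50 without the filter, 122 with DESeq2 and 190 without heterozygous replicate 3. The cause was not tested. Same-numbered libraries correlated in their deviations from genotype means from -0.296 to 0.527. The highest were homozygous and heterozygous replicates 2 and 3, at 0.497 and 0.527. Libraries of different numbers were not compared in this way, so whether the numbers pair the genotypes is not known. With the replicate block 0 members and 0 related genes were called in each comparison. Genes called in all were then 12 in homozygous and 0 in heterozygous against wild-type mice, and 41 in homozygous against heterozygous mice. With 3 mice a group, the members' intervals, not adjusted over all genes, reached 0.087 to 0.12 to either side on the log2 scale. That reach is not the limit of the adjusted test, which left larger differences uncalled. In homozygous against wild-type mice these included Bcl11b at 0.16 (edgeR adjusted p = 0.376) and Insm1 at 0.33 (edgeR adjusted p = 0.221). A count of 0 called members therefore does not exclude differences of such sizes.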
